A study of Mus musculus with 18 samples.

Results

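The genes described here are 7 mouse genes whose human counterparts have been linked to inherited forms of Parkinson's disease or parkinsonism: Park7, Pink1, Lrrk2, Uchl1, Vps35, Atp13a2 and Fbxo7. They were chosen by gene symbol, and every probe set that the array annotation gave to 1 of these genes was taken, which gave 12 probe sets and 7 of the 18194 genes named on the array. All 12 passed the filter on low values, a mean of at least 5.18 on the log2 scale in at least 1 region. In 2 sets of animals, 3 brain regions were dissected. The first set received MPTP, a protoxin whose metabolite enters dopamine neurons through their transporter and damages them, as 5 daily intraperitoneal doses of 30 mg/kg, and the second received saline by the same route. The mice were C57BL/6J males aged 14 weeks, killed 4 days after the last dose, with 3 animals per treatment and no genetic change in either set. MPTP midbrain, striatum and frontal cortex, and saline midbrain, striatum and frontal cortex, thus formed 6 groups of 3 arrays. Every value below is a log2 RMA value of a probe set, in which 1 unit is a doubling, and differences are MPTP minus saline or first-named minus second-named region.

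The 7 proteins meet in a few cell functions. PINK1 is a kinase that accumulates on damaged mitochondria and activates the ubiquitin ligase parkin, so that the damaged organelles are removed by autophagy, and FBXO7, a subunit of an SCF ubiquitin ligase, is reported to act in the same route. DJ-1, the product of Park7, responds to oxidative stress. VPS35 is the core of retromer, which returns cargo from endosomes, LRRK2 is a large kinase that phosphorylates Rab GTPases on the same membranes, and ATP13A2 is a transporter of lysosomal membranes that exports polyamines. UCHL1 is an abundant neuronal deubiquitinase that keeps the pool of free ubiquitin.

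In the mouse build GRCm38.p6, Park7 lies at chr4:150897133-150909921, Pink1 at chr4:138313409-138326296 and Atp13a2 at chr4:140986216-141007330. Lrrk2 lies at chr15:91672791-91816124, Uchl1 at chr5:66676121-66687234, Vps35 at chr8:85260385-85299517 and Fbxo7 at chr10:86020449-86051873. In the RefSeq annotation of that build the lncRNA Uchl1os overlaps Uchl1, the protein-coding gene Syn3 and the snRNA Gm24430 overlap Fbxo7, and the miRNA Mir7019 overlaps Pink1. Vps35 lies 114 bases from Orc6 and Pink1 lies 789 bases from Ddost, whose product belongs to the oligosaccharyltransferase. Which exons the probes match was not analysed here.

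RefSeq promoter windows of 300 bases, from 250 before to 50 after a transcript start, were at hand for 6 of the 7 genes. The 250 bases before the start are shown 5′ to 3′ for Lrrk2 and Fbxo7, the members that differed most between regions, and for Pink1. The second Pink1 probe set was called with MPTP over the mean of the regions, though in no region alone. Capitals mark matches, on either strand, to the GC box GGGCGG or the NRF1 core, which is GCGC, then AN, then GCGC.
Lrrk2, chr15:91672974-91673223, plus strand: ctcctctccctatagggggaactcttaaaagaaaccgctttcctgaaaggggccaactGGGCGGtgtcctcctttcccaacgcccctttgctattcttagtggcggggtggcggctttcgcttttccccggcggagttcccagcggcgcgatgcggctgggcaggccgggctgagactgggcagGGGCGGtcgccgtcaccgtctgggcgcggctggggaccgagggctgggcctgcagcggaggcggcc
Fbxo7, chr10:86021679-86021928, plus strand: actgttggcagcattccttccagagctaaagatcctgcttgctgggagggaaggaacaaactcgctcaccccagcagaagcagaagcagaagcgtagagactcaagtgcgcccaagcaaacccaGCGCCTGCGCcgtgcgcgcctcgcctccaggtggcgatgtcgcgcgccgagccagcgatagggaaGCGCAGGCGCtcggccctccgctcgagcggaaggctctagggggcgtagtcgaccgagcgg
Pink1, chr4:138326297-138326546, minus strand: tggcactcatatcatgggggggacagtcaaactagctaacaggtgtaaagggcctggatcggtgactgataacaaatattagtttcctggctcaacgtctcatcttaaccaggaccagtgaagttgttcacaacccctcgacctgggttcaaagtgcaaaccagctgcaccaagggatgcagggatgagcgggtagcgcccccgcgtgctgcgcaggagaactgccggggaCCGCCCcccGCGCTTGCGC
Both Lrrk2 matches are GC boxes and both Fbxo7 matches are NRF1 cores, while Pink1 has 1 of each here and a further GC box just after its start. The same search covered the TATA box TATAAA, the CCAAT box, the E-box CACGTG and the antioxidant response element TGACNNNGC on both strands, and no match overlapped another in the members' windows. Of 32851 mouse promoter windows, 35.7% held the GC box and 4.60% the NRF1 core, and 13.6%, 37.4%, 7.15% and 12.4% held the other 4 motifs in the order given. The Park7 window held 1 GC box and 1 NRF1 core, that of Atp13a2 1 GC box, a second Fbxo7 window 1 E-box, and that of Uchl1 no match. The first Fbxo7 window had 31 CpG dinucleotides, that of Lrrk2 28 and that of Pink1 18, against a median of 7 over all windows. Uchl1 had 9, the fewest among the members with a window. A match is a stretch of letters and says nothing of a bound factor.

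The arrays had medians of 5.14 to 5.21 and interquartile ranges of 3.37 to 3.65, and the correlation of arrays within a group was 0.991 to 0.997 across probe sets. Markers fitted the labelled regions. The mean of 6 striatal spiny neuron markers was 11.10 to 11.27 on the striatal arrays and at most 6.59 on all others. The mean of 5 cortical glutamatergic markers was 8.66 to 8.94 in cortex and at most 6.99 elsewhere. It was 5.30 to 6.56 on MPTP striatal arrays and 6.38 to 6.99 on saline striatal arrays. The median difference of these 5 markers in striatum was -0.55, and 0 of 5 passed. Whether cortical tissue in the striatal samples bears on the striatal MPTP values was not tested. The mean of 9 dopaminergic markers was 7.28 to 7.38 on the MPTP midbrain arrays and 7.38 to 7.66 on the saline midbrain arrays, against at most 5.61 outside midbrain. Th, the rate-limiting enzyme of dopamine synthesis, averaged 8.02 ± 0.08 in MPTP midbrain and 8.84 ± 0.18 in saline midbrain (SD, n = 3), but 0 of 6 dopaminergic markers tested passed the threshold there. In bulk tissue, fewer cells of a type and less RNA per cell cannot be told apart.

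The saline regions were set against each other first, without toxin, and Lrrk2 differed most of the 12 probe sets. Its values were 6.15, 5.73 and 6.29 in saline midbrain, 8.88, 8.88 and 8.88 in saline striatum, and 7.93, 7.71 and 7.97 in saline cortex. The regions did not overlap, with striatum on top and midbrain lowest. Striatum was 2.01-fold above cortex (log2 difference 1.01 ± 0.12, SE, adjusted p = 1.76e-07), and midbrain was 3.52-fold below cortex (log2 difference -1.82, adjusted p = 3.95e-12) and 7.07-fold below striatum (-2.82, adjusted p = 6.54e-16). MPTP animals gave the same order, with 6.06, 6.21 and 6.04 in midbrain, 9.18, 8.85 and 8.92 in striatum, and 7.68, 7.88 and 7.86 in cortex. The spiny neuron markers were also highest in striatum. Over the arrays of both treatments their mean was 6.22 to 6.45 in midbrain and 5.98 to 6.59 in cortex. Their part in the Lrrk2 levels was not tested.

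Fbxo7 was highest in midbrain and lowest in cortex. It measured 8.36, 8.22 and 8.43 in saline midbrain, 7.96, 7.93 and 7.94 in saline striatum, and 7.49, 7.49 and 7.61 in saline cortex, again with no overlap between regions. Midbrain exceeded cortex 1.75-fold (log2 difference 0.80 ± 0.09, SE, adjusted p = 5.67e-08) and striatum 1.31-fold (0.39, adjusted p = 0.000681), and striatum exceeded cortex 1.33-fold (0.41, adjusted p = 0.000655). The mean of 7 oligodendrocyte markers followed the same order, at 11.02 to 11.16 in saline midbrain, 10.52 to 10.61 in saline striatum and 9.23 to 9.47 in saline cortex. No marker of that list fell under the filter value of 5.18 on any array. Mog, a protein of the myelin surface, averaged 9.14 in saline midbrain, 8.26 in saline striatum and 6.84 in saline cortex. Whether oligodendrocytes set the Fbxo7 level was not tested.

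Atp13a2 was lowest in striatum on all 3 of its probe sets. Probe set 1428340_s_at had 9.44, 9.44 and 9.66 in saline midbrain, 8.80, 8.89 and 8.87 in saline striatum, and 9.18, 9.27 and 9.29 in saline cortex. Its ending _s_at is the maker's mark for a probe set that can match transcripts of more than 1 gene, which was not checked here. Midbrain was above striatum by 0.66, 0.46 and 0.56 on probe sets 1428340_s_at, 1452746_at and 1452747_at, with adjusted p-values of 1.12e-07, 2.03e-05 and 0.000199. Midbrain was also above cortex, by 0.27, 0.23 and 0.39, with adjusted p-values of 0.00697, 0.0189 and 0.00722. Striatum was below cortex on 2 of the 3, by -0.40 (adjusted p = 0.000209) and -0.24 (adjusted p = 0.0174), and the third had -0.18 (adjusted p = 0.233). Over the 18 arrays the 3 probe sets correlated at 0.85 to 0.94, mostly through the regions: within groups the correlations were 0.23 to 0.72. The calls of midbrain over cortex were lost without saline midbrain replicate 3 on all 3 probe sets (0.19, 0.19 and 0.29), and for 1452746_at also without midbrain replicate 1 (0.19) or cortex replicate 2 (0.22). The call of striatum under cortex for 1452746_at was lost without saline striatum replicate 1 (-0.18).

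Park7 and Pink1 were slightly higher in midbrain. The Park7 probe set 1416526_a_at had 10.78, 10.67 and 10.89 in saline midbrain, 10.49, 10.56 and 10.51 in saline striatum, and 10.49, 10.50 and 10.60 in saline cortex. Midbrain arrays lay above both other regions, by 0.26 over striatum (adjusted p = 0.00131) and 0.25 over cortex (adjusted p = 0.00227). The second Park7 probe set, 1456194_a_at, gave 0.19 (adjusted p = 0.0241) and 0.20 (adjusted p = 0.0251). For Pink1, probe set 1451148_at was higher in midbrain by 0.21 over striatum (adjusted p = 0.0138) and by 0.18 over cortex (adjusted p = 0.0402). The other, 1441937_s_at, had differences of the same sign, 0.15 and 0.16, which did not pass (adjusted p = 0.154 and 0.128). Both passed without saline midbrain replicate 3 (0.24, adjusted p = 0.0248, over striatum and 0.25, adjusted p = 0.0206, over cortex), and that over cortex also after a second quantile normalization (0.22, adjusted p = 0.0360). The call for Pink1 1451148_at against cortex was lost without any 1 of 4 saline arrays, cortex replicates 1 and 2 and midbrain replicates 1 and 3, with differences of 0.13 to 0.17. It was also lost with no filter (adjusted p = 0.0661), without an intensity trend (adjusted p = 0.0837) and with the arrays of these regions alone (adjusted p = 0.0650). The call for Park7 1456194_a_at against cortex was lost without any 1 of the same 4, with 0.17 to 0.20, and centring the arrays on their medians lost both (0.14 and 0.16). Against striatum, Pink1 1451148_at lost its call without striatum replicate 1 or midbrain replicate 1 (0.17 and 0.16), and Park7 1456194_a_at without striatum replicate 2 or 3 or midbrain replicate 1 or 3 (0.16 to 0.20).

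Uchl1 and Vps35 showed little regional difference. Uchl1 had 11.44, 11.20 and 11.28 in saline midbrain, 11.26, 11.23 and 11.27 in saline striatum, and 11.41, 11.29 and 11.32 in saline cortex. Its regions overlapped or nearly met, and the intervals of the 3 regional differences lay within -0.22 and 0.19. For Vps35, probe set 1415783_at had differences of -0.08, -0.06 and 0.03, with intervals from -0.27 to 0.21, and none passed. Its second probe set, 1415784_at, was higher in saline midbrain than in saline striatum by 0.36 (adjusted p = 0.0216), which did not hold without striatum replicate 3 (0.31), midbrain replicate 1 (0.22) or midbrain replicate 3 (0.32). Its difference between saline striatum and saline cortex, -0.28, did not pass (adjusted p = 0.0824) but did after centring (-0.33, adjusted p = 0.0379), after a second quantile normalization (-0.28), with the arrays of these regions alone, or without cortex replicate 2 (-0.41).

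By count, 4 of the 12 probe sets passed between saline striatum and saline cortex, 2 higher and 2 lower, where 42.4% of all 23992 probe sets tested did, 20.9% higher and 21.6% lower. Between saline midbrain and saline cortex 8 passed, 7 higher and 1 lower, against 47.7% of all (24.8% and 22.9%), and between saline midbrain and saline striatum 9 passed, 8 higher and 1 lower, against 55.3% (29.8% and 25.6%). The median difference of the 12 was -0.06, 0.19 and 0.23 in these comparisons, beside 0.01, 0.01 and 0.02 over all probe sets. Several probe sets share a gene, so the 12 are not independent.

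**Figure D1:**
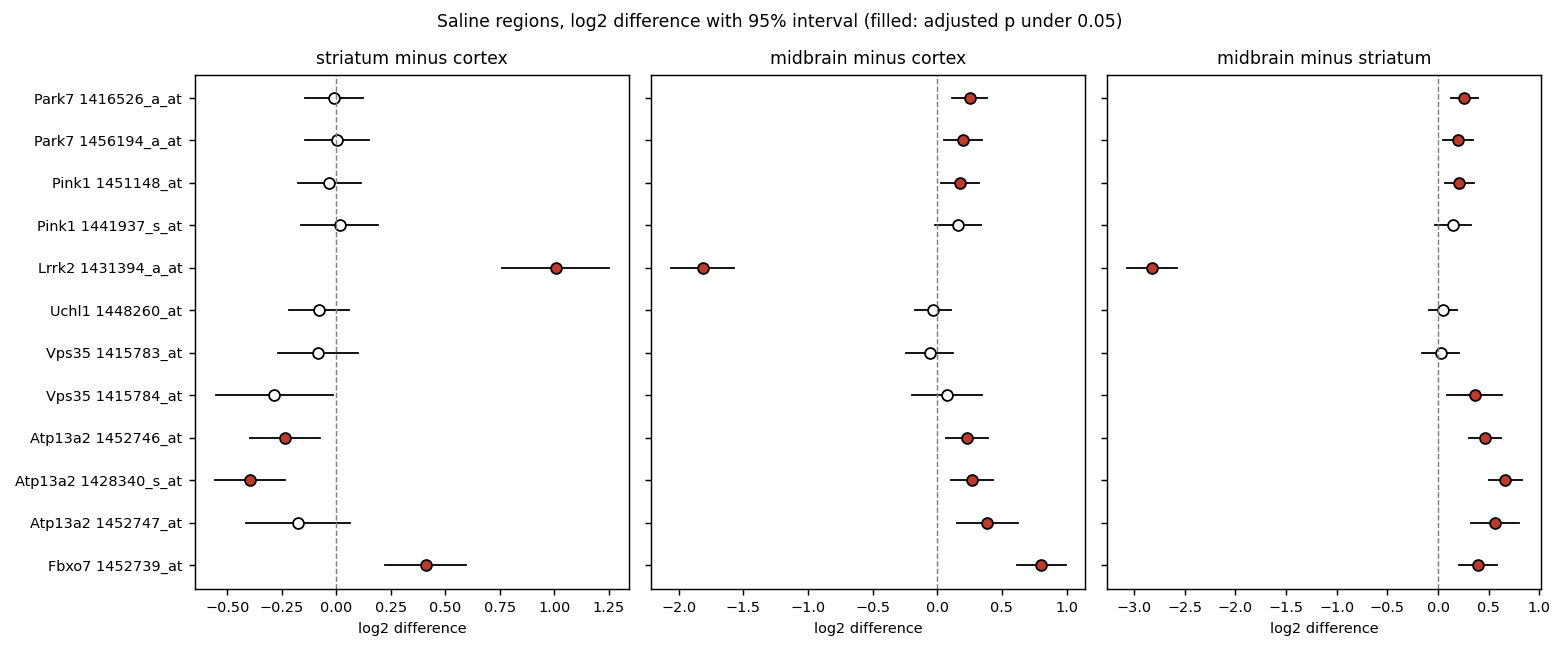
Log2 difference (x axis) of each member probe set (rows) between saline regions, with the 95% interval as a bar and filled points for an adjusted p under 0.05. Lrrk2 lies far from the other rows, at 1.01, -1.82 and -2.82, while Uchl1 is open in all 3 panels.

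MPTP was then set against saline within each region, the comparison for which the mice were assigned. Vps35 had the lowest p of the members in midbrain. Probe set 1415783_at had 10.66, 10.46 and 10.64 in MPTP midbrain, against 10.38, 10.03 and 10.27 in saline midbrain. All 3 MPTP arrays lay above all 3 saline arrays. The difference was 0.36 ± 0.09 (SE, interval 0.17 to 0.54), 1.28-fold, with an adjusted p of 0.0227. The second probe set, 1415784_at, had 8.61, 8.63 and 8.74 in MPTP midbrain and 8.75, 8.12 and 8.54 in saline midbrain. There the groups overlapped, and the difference of 0.19 did not pass (adjusted p = 0.469). The 2 probe sets correlated at 0.71 over the 18 arrays and at 0.79 within groups.

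The midbrain call for Vps35 rested on few arrays. It was lost without saline replicate 2 (0.26, adjusted p = 0.0986), saline replicate 3 (0.38, adjusted p = 0.0620), MPTP replicate 1 (0.32, adjusted p = 0.0950) or MPTP replicate 3 (0.33, adjusted p = 0.150). Over 17 alternatives the difference stayed between 0.26 and 0.43, with adjusted p-values of 0.00378 to 0.203, and 10 of them kept the call. In the same region 3 of 8 astrocyte markers and 2 of 8 microglia markers were higher with MPTP, where 2.70% of all genes were. Of 7 oligodendrocyte markers 1 was higher and 1 lower, and no marker of the other lists was called. The astrocyte mean was 10.19 to 10.22 on MPTP midbrain arrays and 9.94 to 10.14 on saline midbrain arrays, and the microglia mean was 7.77 to 7.88 on MPTP arrays and 7.43 to 7.73 on saline arrays. Their part in the Vps35 value was not tested.

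Elsewhere the same probe set pointed upward without passing. In striatum it had 10.41, 10.46 and 10.31 with MPTP and 10.13, 10.20 and 10.27 with saline. The groups did not overlap, and the difference was 0.19 (interval 0.01 to 0.37, adjusted p = 0.290). In cortex it had 10.27, 10.56 and 10.37 with MPTP and 10.34, 10.19 and 10.33 with saline, overlapping groups with a difference of 0.11 (adjusted p = 0.827). The average over the regions had a random block in which equal treatment and replicate number were taken as 1 animal. By it the difference was 0.22 ± 0.05 (SE, interval 0.11 to 0.33, adjusted p = 0.00765), 1.17-fold. That call held in 27 of 28 alternatives and was lost when the probe sets of a gene were averaged (0.16, adjusted p = 0.123).

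Pink1 was the other member called over the mean of the regions. Probe set 1441937_s_at had 10.29, 10.24 and 10.42 in MPTP striatum and 10.06, 10.01 and 10.06 in saline striatum, with every MPTP array on top. In midbrain it had 10.20, 10.50 and 10.55 with MPTP and 10.31, 10.26 and 10.00 with saline, so that MPTP replicate 1 lay among the saline arrays. In cortex it had 9.97, 10.03 and 10.00 with MPTP and 10.02, 10.04 and 10.03 with saline, all close together. The differences were 0.28 in striatum (interval 0.10 to 0.45, adjusted p = 0.0979), 0.23 in midbrain (interval 0.05 to 0.40, adjusted p = 0.141) and -0.03 in cortex (adjusted p = 0.965). Their mean was 0.16 ± 0.05 (SE, adjusted p = 0.0437), 1.12-fold, and 10 of 26 alternatives kept that call, with adjusted p-values of 0.0101 to 0.144.

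The Pink1 call over the mean was lost after a second quantile normalization (0.11, adjusted p = 0.144), with no filter (adjusted p = 0.0597), without an intensity trend (adjusted p = 0.0863) and without any 1 of 13 of the 18 arrays, with means of 0.13 to 0.16 for the last. Those arrays were all 6 saline arrays of cortex and striatum, saline midbrain replicate 3, and the MPTP replicates 2 and 3 of cortex, 1 and 3 of striatum, and 2 and 3 of midbrain. Without MPTP midbrain replicate 1 the midbrain difference of this probe set was 0.33 and passed (adjusted p = 0.0319), and with the striatal arrays fitted alone the striatal difference passed (adjusted p = 0.0407). The probe set 1451148_at had 10.79, 10.90 and 10.85 in MPTP midbrain against 10.87, 10.66 and 10.79 in saline midbrain, which overlapped. Its differences were 0.08 in midbrain, 0.09 in striatum, 0.02 in cortex and 0.06 over the mean of the regions (adjusted p = 0.352). The 2 Pink1 probe sets correlated at 0.66 over the arrays and at 0.26 within groups. By the maker's naming, a probe set ending in _s_at can match transcripts of more than 1 gene, which was not checked here. In striatum, where the difference of 1441937_s_at was widest, 4 of 8 astrocyte, 4 of 8 microglia, 4 of 7 oligodendrocyte and 2 of 6 endothelial markers were higher with MPTP. Of all genes 1.26% were higher there, and 2.04% were called in either direction. Among the neuronal lists, 1 of 3 midbrain excitatory and 1 of 10 pan-neuronal markers were lower. No dopaminergic, cortical glutamatergic or spiny neuron marker was called. The microglia mean was 8.24 to 8.56 on MPTP striatal arrays and 8.05 to 8.14 on saline striatal arrays, and the astrocyte mean was 9.73 to 9.99 on MPTP arrays and 9.45 to 9.60 on saline arrays. Their part in the Pink1 value was not tested.

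**Figure D2:**
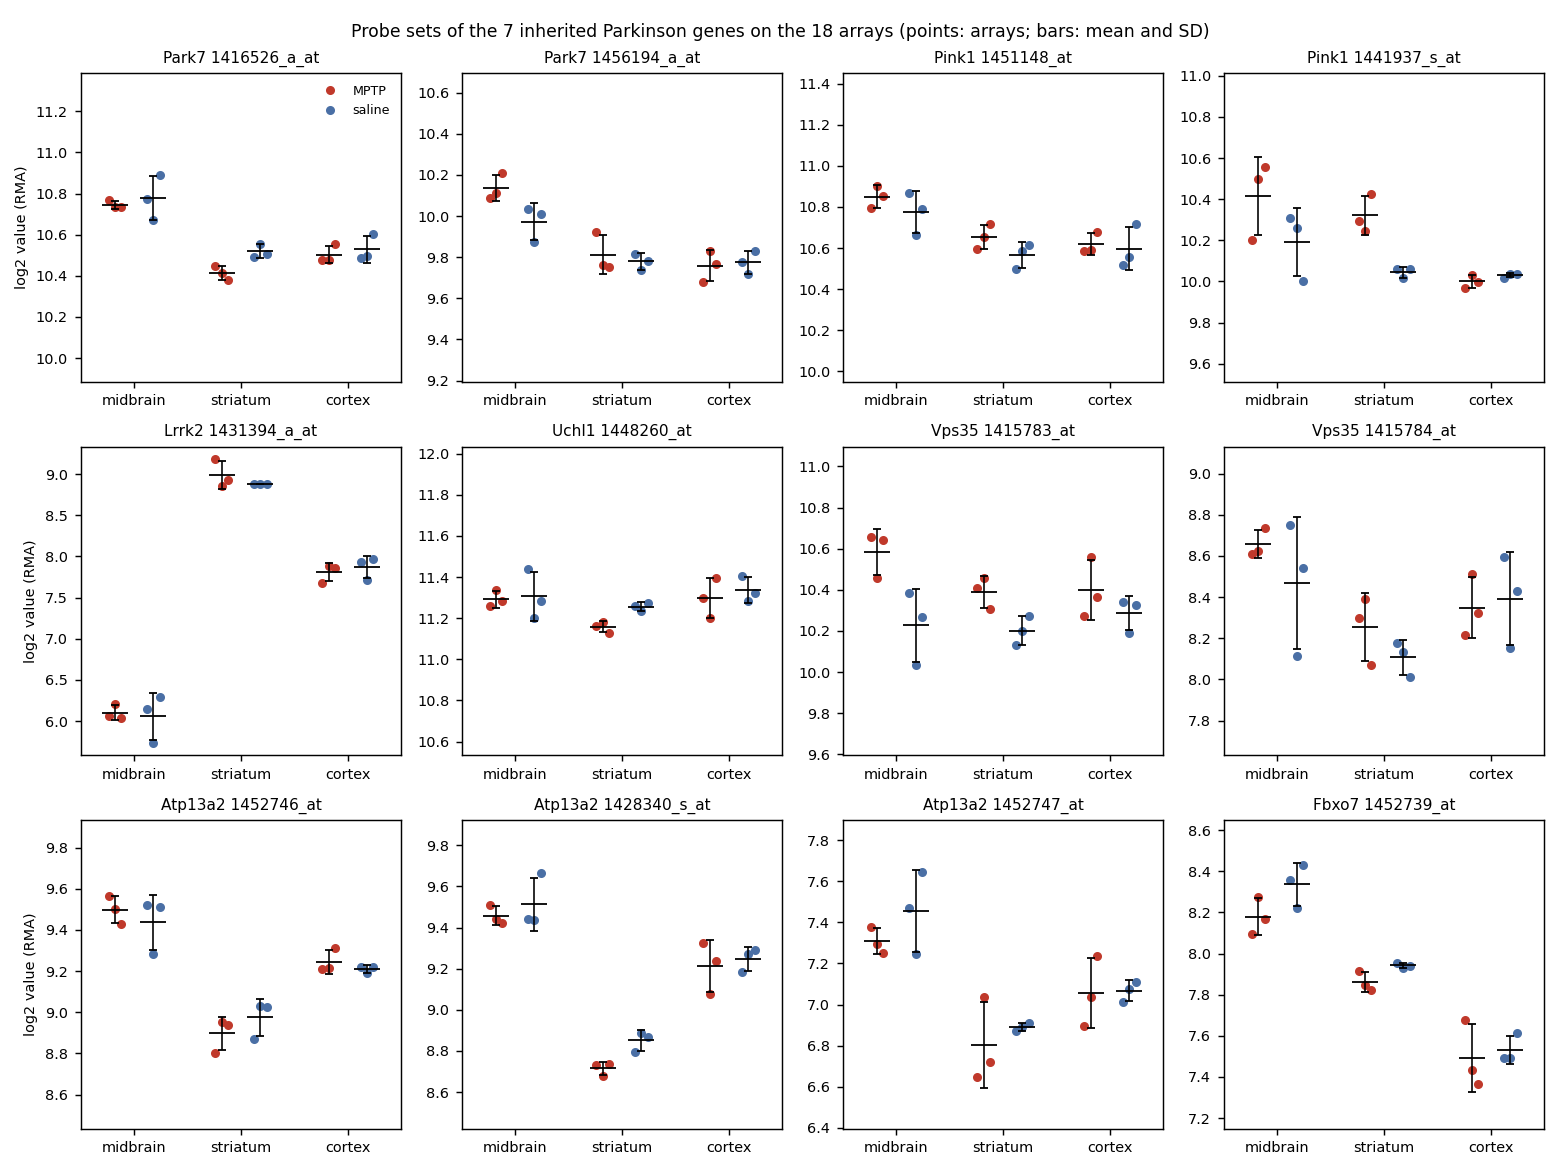
Log2 RMA values (y axis) of the 12 member probe sets on the 18 arrays, MPTP left of saline within each region, where points are arrays and bars are mean and SD (n = 3), and each panel has its own y range. Lrrk2 steps between regions, and the MPTP arrays of midbrain lie above those of saline for Vps35 1415783_at, as do those of striatum for Pink1 1441937_s_at.

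The other 5 genes had no probe set called in any MPTP comparison. In striatum, Park7 1416526_a_at had 10.45, 10.41 and 10.38 with MPTP and 10.49, 10.56 and 10.51 with saline, a separated pair of groups with a difference of -0.10 (interval -0.24 to 0.03, adjusted p = 0.451). Uchl1 had 11.16, 11.18 and 11.13 in MPTP striatum and 11.26, 11.23 and 11.27 in saline striatum, also separated, with a difference of -0.10 (interval -0.24 to 0.04, adjusted p = 0.500). Separation of 3 arrays from 3 was common: 6 of the 12 probe sets were separated in striatum, 4 below and 2 above saline, where 22.5% of all probe sets were, 12.4% below and 10.0% above. In midbrain 2 of 12 were separated, both above saline, against 18.3% of all and 12.2% above, and in cortex 0 of 12, against 14.1%. The second midbrain case was Park7 1456194_a_at, with 10.09, 10.11 and 10.21 under MPTP and 10.04, 9.87 and 10.01 under saline, a difference of 0.16 (interval 0.02 to 0.31, adjusted p = 0.211). The other Park7 probe set had -0.03 in midbrain (adjusted p = 0.833), so the pair did not share a direction.

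Fbxo7 had 8.10, 8.27 and 8.17 in MPTP midbrain and 8.36, 8.22 and 8.43 in saline midbrain, overlapping groups with a difference of -0.16 (interval -0.34 to 0.03, adjusted p = 0.370). Its differences were -0.08 in striatum and -0.04 in cortex, both with intervals that include 0. The 3 Atp13a2 probe sets ranged from -0.13 to -0.08 in striatum, from -0.15 to 0.06 in midbrain and from -0.04 to 0.04 in cortex, and none passed. For Lrrk2 the differences were 0.11 in striatum, 0.05 in midbrain and -0.06 in cortex, with intervals from -0.31 to 0.35, which do not reach the step of 1.01 between saline striatum and saline cortex.

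In all, 1 of 12 member probe sets was called with MPTP in midbrain, where 4.08% of all probe sets were and 3.45% were higher, 0 of 12 in striatum, where 1.96% were, and 0 of 12 in cortex, where 0.0875% were. Over the mean of the regions 2 of 12 were called, both higher, against 10.8% of all and 8.07% higher. At an unadjusted p under 0.05 the counts were 3 of 12 in midbrain, 2 in striatum and 0 in cortex, where 18.4%, 16.0% and 7.54% of all probe sets were. The median difference of the 12 was 0.05 in midbrain, -0.02 in striatum and -0.03 in cortex, beside 0.03, -0.02 and 0.04 over all probe sets.

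**Figure D3:**
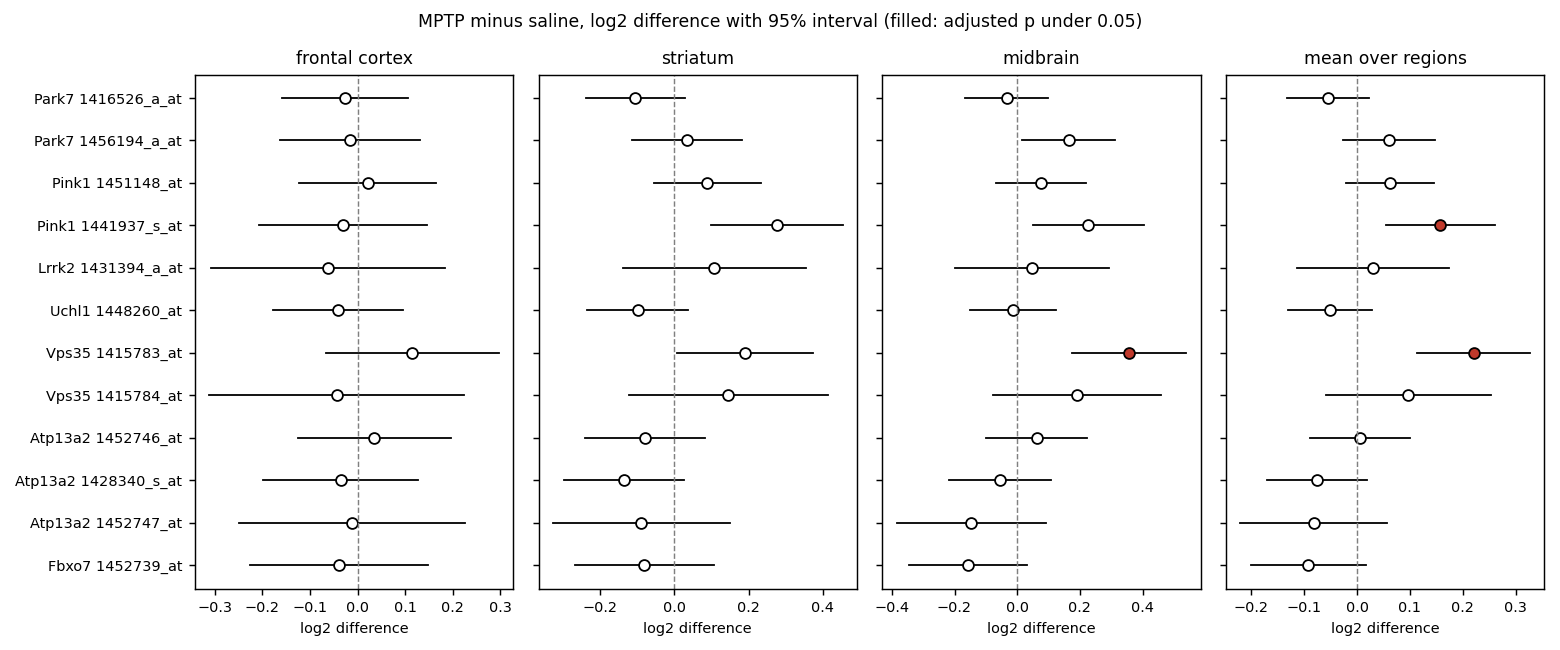
MPTP minus saline log2 difference (x axis) of each member probe set (rows) in cortex, striatum, midbrain and over the mean of the regions, with the 95% interval as a bar. Filled points passed an adjusted p of 0.05: Vps35 1415783_at in midbrain and over the mean, and Pink1 1441937_s_at over the mean.

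Whether the response to MPTP differed between regions was tested directly, as the difference between 2 MPTP minus saline differences. By limma 0 of 12 member probe sets passed in any of the 3 pairs of regions, where 0.0584% of all passed when striatum was set against cortex, 0% when midbrain was set against cortex and 0.0584% when midbrain was set against striatum. At an unadjusted p under 0.05 there were 1, 1 and 0 of 12, near the shares of all probe sets, 7.39%, 6.79% and 5.66%. Both were Pink1 1441937_s_at, with 0.31 for striatum minus cortex (interval 0.06 to 0.56, adjusted p = 0.603) and 0.26 for midbrain minus cortex (interval 0.01 to 0.51, adjusted p = 0.721). For Vps35 1415783_at, midbrain minus cortex gave 0.24 (interval -0.02 to 0.50, adjusted p = 0.767). A response of Vps35 particular to midbrain was not shown by this test.

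Genes that work with the members were taken as 7 lists of 196 genes, of which 168 were tested, each by its probe set of highest mean. No gene of any list was called with MPTP in cortex, where 0.0681% of all genes were. In midbrain, where 3.15% of genes were called and 2.70% were higher, the lists gave 10 calls, all higher. In striatum, where 2.04% were called and 1.26% were higher, they gave 5, all higher. The mitophagy list around PINK1 and parkin had 3 of 32 in midbrain and 0 of 32 in striatum. The 3 were Tomm20 (10.74 in MPTP midbrain and 10.25 in saline midbrain, difference 0.49, adjusted p = 0.0126), Tomm70a (0.37, adjusted p = 0.0122) and Vdac3 (0.34, adjusted p = 0.0141). Tomm20 and Tomm70a encode receptors of the mitochondrial import complex, through which PINK1 passes, and Vdac3 an outer membrane channel. In striatum the smallest p-values of the mitophagy list were those of Tomm7 (-0.29, adjusted p = 0.0621) and Tomm20 (0.32, adjusted p = 0.139).

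The retromer, sorting nexin and WASH list had 1 of 23 in midbrain and 0 of 23 in striatum. It was Vps29, a retromer subunit bound to VPS35, with 11.00 in MPTP midbrain and 10.66 in saline midbrain (difference 0.34, adjusted p = 0.0417). Over the mean of the regions Vps29 (0.22, adjusted p = 0.0120) and Snx5, a sorting nexin that works with retromer (0.17, adjusted p = 0.0362), were called, 2 of 23 against 9.33% of all genes. In striatum the smallest p-values of the retromer list were those of Snx5 (0.23, adjusted p = 0.210) and Snx6 (0.26, adjusted p = 0.223). The list of LRRK2 partners and Rab substrates had 0 of 29 in midbrain and 0 of 29 in striatum. Its values nearest to the threshold were Dnm1l (0.30, adjusted p = 0.0570) and Rab5a (0.29, adjusted p = 0.0831) in midbrain, and Ywhaq (0.31, adjusted p = 0.0618) and Bag5 (-0.25, adjusted p = 0.0871) in striatum. Dnm1l, the GTPase that divides mitochondria, Ywhaq, a 14-3-3 protein, and Rab5a passed over the mean of the regions, at 0.23, 0.19 and 0.18.

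Of 37 lysosomal genes 2 were called in midbrain, 2 in striatum and 0 in cortex. In midbrain they were Lamp2, a lysosomal membrane protein (0.33, adjusted p = 0.0394), and Syt11, a synaptotagmin (0.22, adjusted p = 0.0478). In striatum they were the cathepsins Ctss, with 10.61 in MPTP striatum and 10.16 in saline striatum (0.46, adjusted p = 0.0444), and Ctsl (0.38). Ctss is a protease made by microglia, whose marker values in striatum are given above, and their part in the Ctss value was not tested. Among 17 genes listed with DJ-1, Nfe2l2, the regulator of antioxidant genes, and Cat, the catalase gene, were called in both regions. Nfe2l2 differed by 0.44 in midbrain (adjusted p = 0.0264) and by 0.44 in striatum (adjusted p = 0.0401), and Cat by 0.40 (adjusted p = 0.0331) and 0.45 (adjusted p = 0.0270).

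Among 13 other genes of inherited parkinsonism only Podxl, a sialomucin of cell surfaces, was called in single regions, with 7.87 in MPTP midbrain and 7.25 in saline midbrain (0.63, adjusted p = 0.0142) and 7.76 in MPTP striatum and 7.18 in saline striatum (0.59, adjusted p = 0.0326). Its cortical difference was 0.55 (adjusted p = 0.169). Podxl is also made by endothelial cells, whose 6 markers averaged 7.69 to 7.86 in MPTP midbrain and 7.40 to 7.71 in saline midbrain, and their part was not tested. The ubiquitin list, which holds partners of UCHL1 and FBXO7, had 1 of 17 in midbrain, the proteasome deubiquitinase Usp14 (0.34, adjusted p = 0.0322), and 0 of 17 in striatum. In striatum its smallest p-values were those of Otub1 (-0.31, adjusted p = 0.118) and Psmd7 (-0.18, adjusted p = 0.249). The list medians lay between 0.00 and 0.12 in midbrain and between -0.05 and 0.07 in striatum, beside 0.03 and -0.03 over all genes. Over the mean of the regions 9.33% of all genes were called. The list calls there, all higher, were 4 of 32 mitophagy genes, 3 of 29 LRRK2 partners, 4 of 37 lysosomal genes, 4 of 17 genes listed with DJ-1, 3 of 13 other parkinsonism genes and 3 of 17 ubiquitin genes. Among them were Gpx1, a glutathione peroxidase (0.20), Prdx2, a peroxiredoxin (0.13), the cathepsin gene Ctsd (0.18), Fundc1, a mitophagy receptor (0.21), Tmem230 (0.20), Rab39b (0.25) and Skp1, the SCF adaptor to which FBXO7 binds (0.14).

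**Figure D4:**
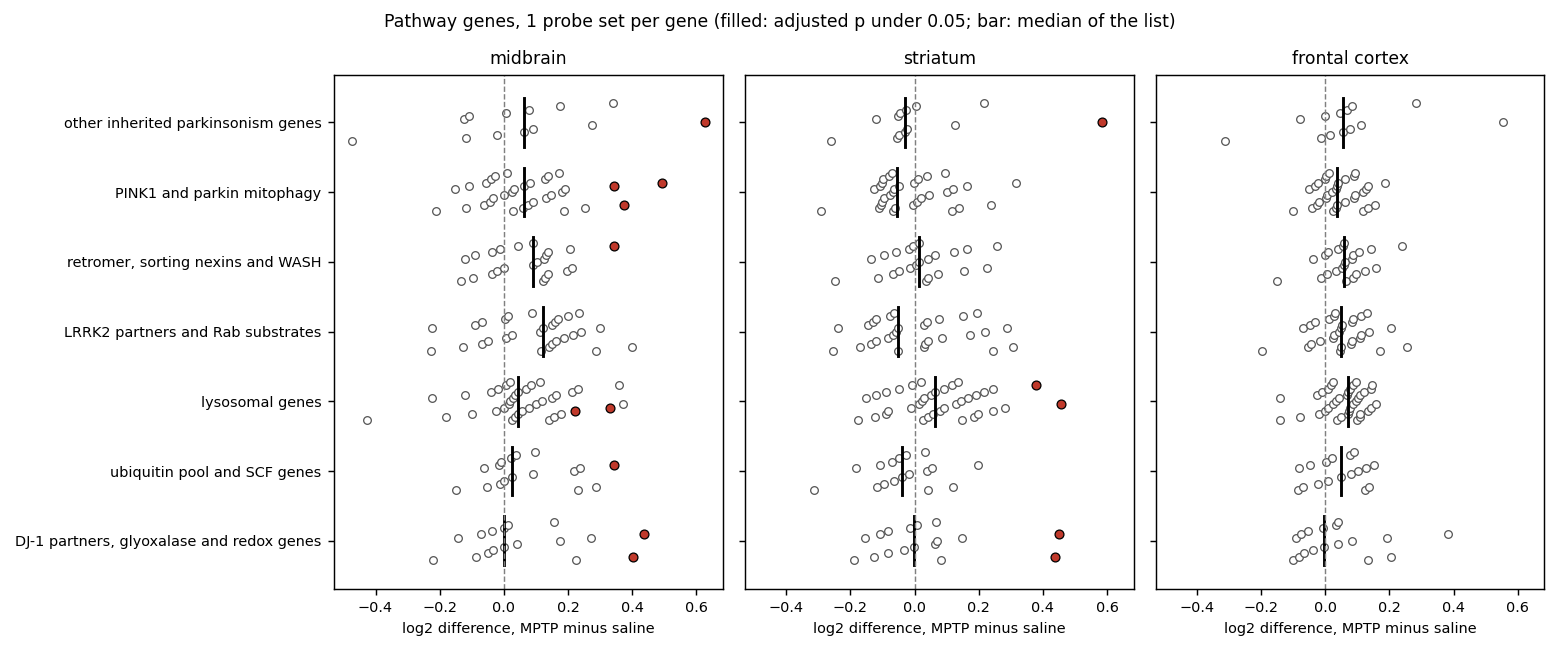
MPTP minus saline log2 difference (x axis) of the tested genes of 7 lists (rows) in midbrain, striatum and cortex, 1 probe set per gene. Filled points passed an adjusted p of 0.05 and the thick bar is the list's median: filled points number 0 in cortex, 5 in striatum and 10 in midbrain, all to the right of 0.

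Finally, each member was set against 11360 named genes by the Pearson correlation of log2 values over the 18 arrays, which share 3 regions and 2 treatments. This describes likeness of pattern, mostly between regions. Lrrk2 was most like Lzts3 (0.996), Phactr1 (0.995) and Dclk3 (0.995), and Lzts3 averaged 8.85 in saline midbrain, 11.39 in saline striatum and 10.37 in saline cortex. Fbxo7 was most like Gjb1, the gap junction gene of myelinating cells, Gpr37 and Pdlim2 (0.978, 0.976 and 0.975), and Gjb1 averaged 8.70 in saline midbrain, 7.60 in saline striatum and 6.37 in saline cortex. Atp13a2 was most like Nxph1, Cntnap4 and Dbndd1 (0.982, 0.982 and 0.976), and Park7 most like Phpt1, Babam1 and Ndufs7, a subunit of complex I (0.972, 0.971 and 0.970).

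For Vps35, Pink1 and Uchl1 the highest correlations were lower. Vps35 was most like Trappc8 (0.926), Gucy1a2 (0.921) and Cltc, the clathrin heavy chain (0.913). Cltc averaged 11.58 in MPTP midbrain and 11.33 in saline midbrain. Pink1 was most like Slc41a3, Cdip1 and Fermt2 (0.917, 0.913 and 0.908), and Uchl1 most like Psmd2, a proteasome subunit, Mrps25 and Rnasek (0.860, 0.857 and 0.855). These correlations used the probe set of highest mean of each gene, so for Pink1 they describe 1451148_at and not the probe set called with MPTP.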

How the data were processed

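Total RNA of 3 brain regions was hybridised to Affymetrix mouse arrays, 1 per sample. The deposited values are log2 summaries per probe set that, per the submitters' processing notes, the authors made with RMA. No version of it is given in the sources used here, and the base of the log was read from the values, 2.48 to 14.2. RMA brings arrays to a common distribution, so a shift of all genes would not show.

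All 45101 probe sets and 18 arrays were used. A single gene was annotated for 34958 probe sets, several for 932 and none for 9211. Symbols of 34754 were updated by Entrez ID through the RefSeq table (GRCm38.p6), and 204 kept the array's symbol. A filter at the 50th percentile left 23992 probe sets. Limma 3.58.1 in R 4.3.3 fitted the 6 group means over all arrays with trended moderated variances (12 residual degrees of freedom, 23.6 after moderation) and Benjamini-Hochberg adjustment within each contrast over all probe sets tested. Calls are adjusted p-values under 0.05, and intervals are 95%. The mean over regions had a random block for the animal (correlation 0.0113), formed from treatment and replicate number. That equal numbers mark 1 animal is not stated in the labels, and the arrays bore it out only in part. Within a treatment, deviations from group means correlated at a median of 0.107 for same-numbered arrays of 2 regions and -0.038 for other numbers. In 23 of 36 comparisons an array fitted best with its own number. Saline striatum replicate 1 had -0.112 with saline cortex replicate 1 and 0.271 with replicate 2. Where numbers do not mark animals, p-values over the mean of the regions may be too small. No such block entered the other contrasts, so arrays of different regions counted there as independent, although 3 animals per treatment gave all regions. Every member probe set and the 3 genes most like each member are named. List genes were drawn from up to 4 called genes per contrast, or otherwise the 2 of smallest p. Not all list genes so drawn are printed, and the uncalled ones of cortex are left out. For Cltc, Lzts3, Gjb1, Th and Mog levels were added after they were seen. The p-values rest on 1 spread per probe set, pooled over the 6 groups and moderated across probe sets. They do not measure the spread of the groups compared alone. Having 3 animals per group limits every value.

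The procedure was tested on simulated data for MPTP minus saline within a region. A log2 change of 0.25 was recovered in 4.48% of cases in cortex, 5% in striatum and 1.28% in midbrain. A change of 0.5 was recovered in 56.3%, 43.8% and 53.3%. The simulated noise was independent between arrays, so it cannot test the effect of arrays that share an animal. Python 3.11.15, pandas 2.3.3 and numpy 2.4.6 were used for tables. Members, gene lists and tests were chosen with earlier results of these data known. Whether equal replicate numbers pair saline and MPTP arrays was checked, and they were not treated as pairs.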

Additional observations from a re-analysis of the deposited data

How the results depend on the processing

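Of the regional calls, those for Lrrk2, Fbxo7 and the Atp13a2 differences between midbrain and striatum kept their side of the threshold under every alternative run. So did Park7 1416526_a_at between midbrain and each other region, and Atp13a2 1428340_s_at between striatum and cortex. Over all member probe sets and contrasts, settings that left out 1 array kept direction and call in 961 cases, lost it in 40, gained it in 4 and changed the sign of an uncalled value in 75. Other settings did so in 1166, 12, 7 and 23 cases. The median interval of all probe sets within a region was 0.472 wide. With 3 arrays per group, most MPTP differences of 0.1 to 0.3 within a region would not be called. Between saline regions several member differences of that size were called.

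With the percentage of all probe sets called in the main setting given above, no filter gave 0.0532% in cortex, 0.741% in striatum, 1.72% in midbrain, 5.43% over the mean of the regions, and 23.9%, 27.1% and 32.6% for saline striatum minus cortex, midbrain minus cortex and midbrain minus striatum. It gave 0.0222% and 0.0266% for the response of striatum minus cortex and of midbrain minus striatum. The filter at the 75th percentile gave 3.66% in striatum, 7.08% in midbrain, and 0% and 0.0231% for those 2 responses. Quantile normalization a second time gave 0.0417% in cortex, 5.2% in striatum, 7.68% in midbrain, 17.4% over the mean, and 0.138% and 0.15% for the responses. It moved the split of higher and lower calls to 753 and 495 in striatum (341 and 129 in the main setting), 1081 and 760 in midbrain (828 and 150) and 2184 and 1977 over the mean (1937 and 658), called Park7 1416526_a_at (-0.11) and Uchl1 (-0.10) lower over the mean, and ended the Pink1 1441937_s_at call there (0.11). Centring gave 0.0542% in cortex. Without an intensity trend there were 0.00417% in cortex, 1.05% in striatum, 2.66% in midbrain, 0.0375% for the response of striatum minus cortex and 0.00417% for midbrain minus cortex. Only the arrays of the regions compared gave 0.379% in cortex, 0.104% for the response of striatum minus cortex and 0.00834% for midbrain minus cortex. With 1 probe set per gene midbrain had 2.54%, and averaging a gene's probe sets gave 0.704% in midbrain and 0.0102% in cortex. The causes were not tested, except that no filter and the 75th percentile change how many probe sets are tested.

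Member calls in midbrain were 0 with the mean over probe sets, without a trend or with midbrain arrays alone, and 1 in striatum with striatal arrays alone. Over the mean of the regions they were 1 with no filter, with 1 probe set per gene or without a trend, and 0 with the mean over probe sets. Saline midbrain minus cortex and minus striatum had 5 called each with 1 value per gene, by either rule, where 7 genes can be called.

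Leaving out 1 array in turn gave 0% to 0.05% called in cortex, 0.358% to 2.63% in striatum, 0.158% to 8.82% in midbrain and 7.27% to 14.7% over the mean. Saline striatum minus cortex gave 37.2% to 39.0%, midbrain minus cortex 43.1% to 48.7% and midbrain minus striatum 50.2% to 55.6%. The responses gave 0.0292% to 0.0667%, 0% to 0.329% and 0.0375% to 0.0834%. Member calls ranged from 0 to 1 in midbrain, 1 to 2 over the mean, and 3 to 5, 4 to 8 and 6 to 9 for the saline regions, and were 0 elsewhere.

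Same-numbered saline and MPTP arrays of a region deviated together at correlations of -0.164 to 0.267 (median -0.062), so the numbers were not taken as pairs. The replicate block gave 0.217% in cortex, 2.4% in striatum and 4.44% in midbrain, and changed no member call.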
